A study of Mus musculus with 13 samples.

Results

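Growing oocytes make a large pool of mRNAs that are kept silent with short poly(A) tails and are translated only when meiosis resumes. RNA-binding proteins hold this pool: ZAR1, ZAR1L, YBX2 and LSM14B pack maternal mRNAs into storage granules. The cap is occupied by eIF4E1B, whose partner is 4E-T, the product of Eif4enif1. CPEB1, CPEB4 and DAZL bind the 3′UTR and regulate poly(A) tails and translation, and PABPC1L is the poly(A)-binding protein of oocytes. The 10 genes that encode these proteins (Cpeb1, Cpeb4, Dazl, Pabpc1l, Ybx2, Eif4e1b, Eif4enif1, Lsm14b, Zar1 and Zar1l) were taken by name, and all 10 were found among the 22442 genes of the Ribo-seq table. Here their own translation was followed from the GV stage, the immature oocyte with an intact nucleus, to the MII stage, the mature oocyte, with and without Nat10, the acetyltransferase that writes ac4C (N4-acetylcytidine) on RNA.

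Ribo-seq counts the fragments of coding sequence (CDS) that a translating ribosome shields from RNase, so a count reflects the amount of an mRNA together with its ribosome load. There were 3 WT GV, 3 Nat10-ZcKO GV, 2 WT MII and 3 Nat10-ZcKO MII libraries, each from about 100 pooled oocytes of mice aged 21 days. All mice were of C57BL/6J background and had received 5 IU PMSG, a hormone that drives follicle growth. GV oocytes were taken 48 h later, and MII oocytes 16 h after an injection of hCG, the ovulation signal, that followed PMSG by 46 h. Nat10-ZcKO females are given in the study as Nat10 lox/- with Zp3-Cre, a Cre that acts in growing oocytes and not in the somatic cells around them. The design text also names tamoxifen given for 3 days, which the methods do not describe for these mice. The paper reports that most superovulated Nat10-ZcKO oocytes stopped at MI, the stage before MII. What part of the oocytes in the Nat10-ZcKO MII libraries had reached MII is not given. In a separate acRIP-seq experiment, poly(A) RNA came from about 2000 GV oocytes of WT C57BL/6J mice, also aged 21 days. This RNA was pulled down with an anti-ac4C antibody or with IgG, in 1 library each. The methods speak of biological replicates for the study as a whole, but no source says that these libraries came from separate mice, so p-values may measure a partly technical spread.

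Totals ran from 42360 to 279464 counts in 10 Ribo-seq libraries and came to 4815 in WT MII replicate 2, where a count of 0 allows up to 623 CPM (counts scaled to a common library total). That library held 3 counts on the 10 genes, all on Ybx2. Nat10-ZcKO GV replicates 1 and 2 held 10 and 146 counts on them, against 885 to 2552 in the 4 other GV libraries. In the same pair of libraries the 14 oocyte markers took 0.0283% and 1.79% of counts, against 6.70% to 13.04% in the other GV libraries, and the 12 adipocyte markers took 1.43% and 0.286%, against 0.0166% to 0.0247%. So 3 libraries stood apart, and each comparison is given with all libraries of its fit and without these 3. The fits without them rest on 3 WT GV, 1 Nat10-ZcKO GV, 1 WT MII and 3 Nat10-ZcKO MII libraries, and assume that a lone library varies like the other groups. Nat10 had 1 to 11 counts in each of the 11 libraries, too few to check the genotype. A single gene, Vsig8, took 6.87% to 24.8% of counts in the 10 deeper libraries.

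In WT GV oocytes these genes covered a wide range of levels. Per CDS length and depth (TPM, which scales to both), Zar1 stood highest at 4739 ± 429 TPM (SD, n = 3), rank 13 among 22359 genes. Ybx2 (1236 TPM) and Eif4e1b (1212 TPM) followed with overlapping ranges, at ranks 66 and 67. Cpeb1 (554 TPM), Pabpc1l (527 TPM), Lsm14b (392.3 TPM) and Eif4enif1 (279 TPM) came next, each overlapping its neighbour. Zar1l was at 138 TPM, Dazl at 49.3 ± 35.2 TPM and Cpeb4 at 3.45 TPM on 1, 3 and 0 counts, and none of these 3 overlapped its neighbours. Of the 10 genes, Dazl was thus above Cpeb4 alone at the GV stage.

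**Figure D1:**
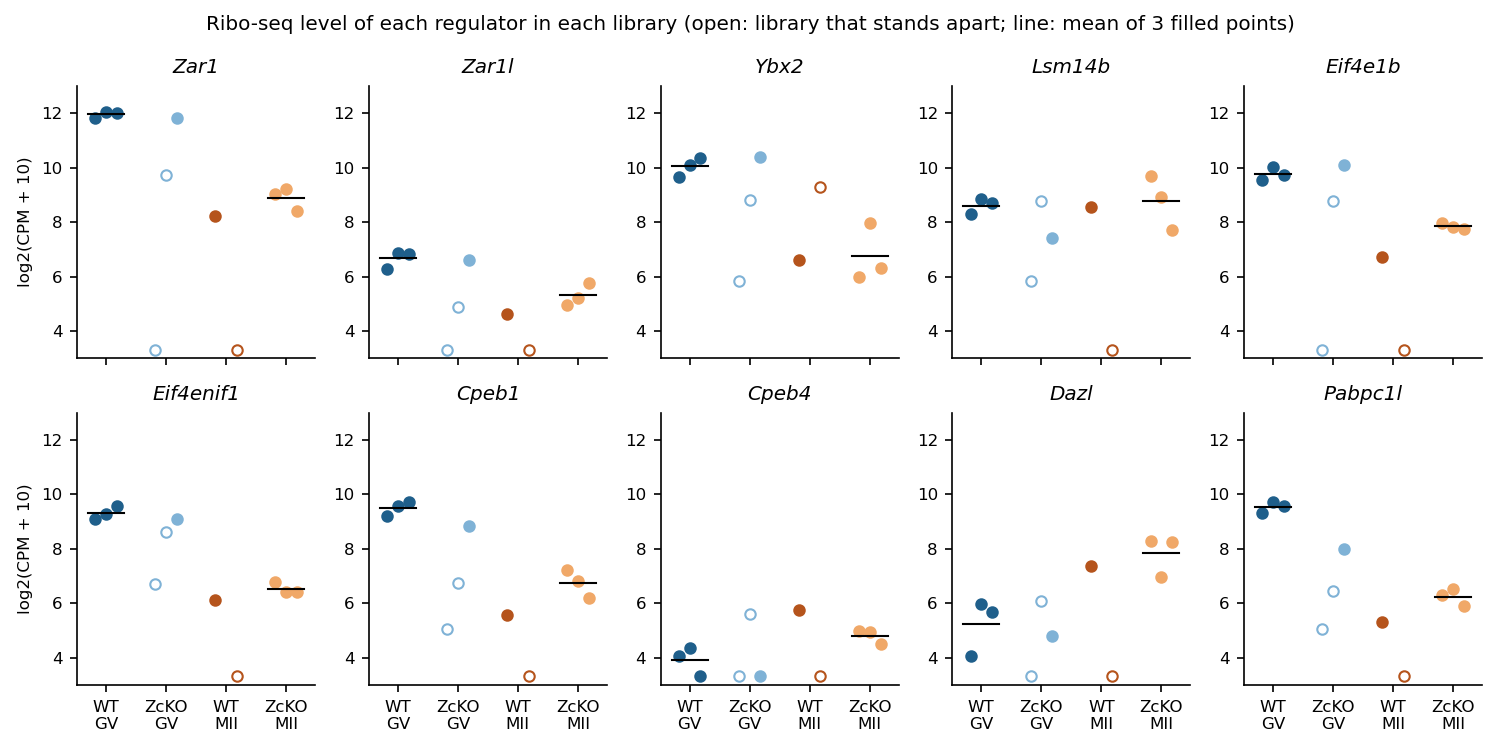
Ribo-seq level of each of the 10 genes as log2(CPM + 10), 1 point per library, in WT GV, Nat10-ZcKO GV, WT MII and Nat10-ZcKO MII oocytes. Open points are the 3 libraries that stand apart, and lines are means of the 3 filled points of a group. Apart from the open points, the GV libraries lie above the MII libraries for 7 genes, as for 25.9% of 4029 genes. They lie below them for Dazl, as for 25.1%, and for Cpeb4, on only 0 to 3 counts in GV and 2 to 6 in MII. The stages overlap for Lsm14b.

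The storage granule genes Zar1, Ybx2 and Zar1l lost most of their footprints from GV to MII in the libraries that did not stand apart, whereas Lsm14b did not. Zar1 (ENSMUSG00000063935.3, chr5:72576806-72581254 of GRCm38, minus strand) was at 3595, 4179 and 4150 CPM in WT GV replicates 1 to 3 and at 3590 CPM in Nat10-ZcKO GV replicate 3. In MII it was at 289 CPM in WT replicate 1 and at 516, 579 and 332 CPM in the Nat10-ZcKO libraries, all far below the GV libraries. Nat10-ZcKO GV replicates 1 and 2 were at 0 and 851 CPM, below the 4 other GV libraries. Ybx2 (ENSMUSG00000018554.13, chr11:69935796-69941605, plus strand), a Y-box protein that coats stored mRNA, was at 804, 1099 and 1311 CPM in WT GV, against 1335 CPM in Nat10-ZcKO GV replicate 3. Its MII values were 89.0 CPM in WT replicate 1 and 53.2, 239 and 68.9 CPM in Nat10-ZcKO, and again the stages did not overlap. Zar1l (ENSMUSG00000056586.8, chr5:150507055-150518164, minus strand), the close relative of Zar1, ran from 68.7 to 107 CPM in these 4 GV libraries and from 14.8 to 43.8 CPM in the 4 MII libraries, on 2 to 7 counts in MII. Lsm14b (ENSMUSG00000039108.14, chr2:180024987-180035465, plus strand) was at 302, 451 and 406 CPM in WT GV, 162 CPM in Nat10-ZcKO GV replicate 3, 363 CPM in WT MII replicate 1, while the Nat10-ZcKO MII libraries were at 819, 470 and 200 CPM. Its stages overlapped.

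The cap-binding gene Eif4e1b and its partner gene Eif4enif1 were lower in MII in the same way. Eif4e1b (ENSMUSG00000074895.10, chr13:54783998-54788459, plus strand), the oocyte form of the cap-binding protein, was at 742, 1031 and 843 CPM in WT GV, against 1086 CPM in Nat10-ZcKO GV replicate 3. It was at 96.4 CPM in WT MII replicate 1 and at 239, 218 and 207 CPM in Nat10-ZcKO MII. Eif4enif1 (ENSMUSG00000020454.17, chr11:3202392-3244588, plus strand) ran from 538 to 749 CPM in these GV libraries and from 59.3 to 101 CPM in MII. Neither gene had a count in WT MII replicate 2.

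Among the genes whose products bind the 3′UTR or the poly(A) tail, Cpeb1 and Pabpc1l fell while Dazl moved the other way. Cpeb1 (ENSMUSG00000025586.17, chr7:81347026-81455465, minus strand), which recognises the cytoplasmic polyadenylation element (CPE), was at 577, 748 and 843 CPM in WT GV, 444 CPM in Nat10-ZcKO GV replicate 3, 37.1 CPM in WT MII replicate 1, while the Nat10-ZcKO MII libraries were at 138, 102 and 62.6 CPM. Pabpc1l (ENSMUSG00000054582.4, chr2:164025450-164050538, plus strand) was at 632, 837 and 759 CPM in WT GV, 245 CPM in Nat10-ZcKO GV replicate 3, 29.7 CPM in WT MII replicate 1, while the Nat10-ZcKO MII libraries were at 69.2, 81.8 and 50.1 CPM. For both genes Nat10-ZcKO GV replicate 3 was the lowest of the 4 GV libraries, still above every MII library. Dazl (ENSMUSG00000010592.9, chr17:50279395-50293636, minus strand) had 1, 15 and 4 counts in WT GV and 5 in Nat10-ZcKO GV replicate 3, or 6.87 to 53.7 CPM. It had 21 counts in WT MII replicate 1, with 57, 17 and 47 in the Nat10-ZcKO MII libraries, or 116 to 303 CPM, so every MII library lay above every GV library of these 8. Nat10-ZcKO GV replicates 1 and 2 had 0 and 3 Dazl counts. Cpeb4 (ENSMUSG00000020300.14, chr11:31872211-31935634, plus strand), the CPEB relative of late meiosis, had 0 to 3 counts in each GV library and 2 to 6 in the 4 MII libraries, too few to pass the filter on low counts in any fit made with that filter.

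Across both genotypes, 9 of the 10 genes could be tested for a stage difference (edgeR's quasi-likelihood test, 11 libraries, Benjamini-Hochberg adjustment over 3863 genes). Dazl was called higher in MII, as were 9.58% of all genes tested, and Ybx2, Eif4enif1, Cpeb1 and Pabpc1l were called lower, as were 16.8% of all genes. Dazl was 5.46-fold higher (log2 2.45, SE 0.77, adjusted p = 0.0129). Pabpc1l was 8.04-fold lower (log2 -3.01, SE 1.01, adjusted p = 0.0204), and Eif4enif1, Cpeb1 and Ybx2 were 7.92-fold, 7.56-fold and 8.11-fold lower (adjusted p = 0.0200, 0.0241 and 0.0302). Zar1 at log2 -3.17 (SE 1.29), Eif4e1b at -2.55 and Zar1l at -1.76 missed the threshold (adjusted p = 0.0518, 0.0544 and 0.09997). Lsm14b was at 0.24 (SE 0.89, adjusted p = 0.853). The median of all genes in this contrast was -0.61, and -0.50 with library size scaling and -1.05 with DESeq2, so the fold changes of the falling genes are to be read against a shift of that size; Lsm14b turned to -0.25 with DESeq2.

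Without the 3 libraries that stood apart, the same contrast gave larger fold changes. These libraries were told apart partly by their few counts on the 10 genes, so this gain is no independent support for the fall. Of the 9 genes tested, 7 were called lower, against 30.8% of 4029 genes, and Dazl was called higher, against 26.0%. Zar1 was 11.4-fold lower (log2 -3.51, SE 0.33, adjusted p = 4.4e-10), Ybx2 12.9-fold, Pabpc1l 10.6-fold, Cpeb1 10.2-fold, Eif4enif1 9.12-fold, Eif4e1b 7.42-fold and Zar1l 4.59-fold lower. Dazl was 6.59-fold higher (log2 2.72, SE 0.53, adjusted p = 8.0e-05), and Lsm14b was at log2 0.57 (SE 0.35, adjusted p = 0.155). The median of all genes was -0.17. In CPM of the same 8 libraries the MII values of 7 genes lay wholly below the GV values, as for 25.9% of genes, and those of Dazl wholly above, as for 25.1%.

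The calls of the 11-library fit depended on the filter on low counts and on single libraries. Without that filter none of the 5 genes was called (adjusted p from 0.0856 to 0.101). Without WT MII replicate 1, where WT MII replicate 2 with 0 Dazl counts alone stands for WT MII, Dazl was at -0.88 (adjusted p = 0.670), and without WT GV replicate 1 its adjusted p was 0.0516. Ybx2, Cpeb1 and Pabpc1l lost their calls without Nat10-ZcKO GV replicate 3 (adjusted p = 0.111, 0.179 and 0.123), and Eif4enif1 on leaving out any 1 of Nat10-ZcKO MII replicates 1, 2 and 3 (up to 0.0675). The other losses, for Ybx2 without any WT GV library or Nat10-ZcKO MII replicate 1 or 3, for Cpeb1 without WT GV replicate 2 or 3 or any Nat10-ZcKO MII library, and for Pabpc1l without Nat10-ZcKO MII replicate 1 or 3, had adjusted p-values up to 0.105. Zar1 and Eif4e1b gained a call without Nat10-ZcKO GV replicate 1 or 2 or WT MII replicate 1, and Zar1l without Nat10-ZcKO GV replicate 1 (adjusted p = 0.0408).

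**Figure D2:**
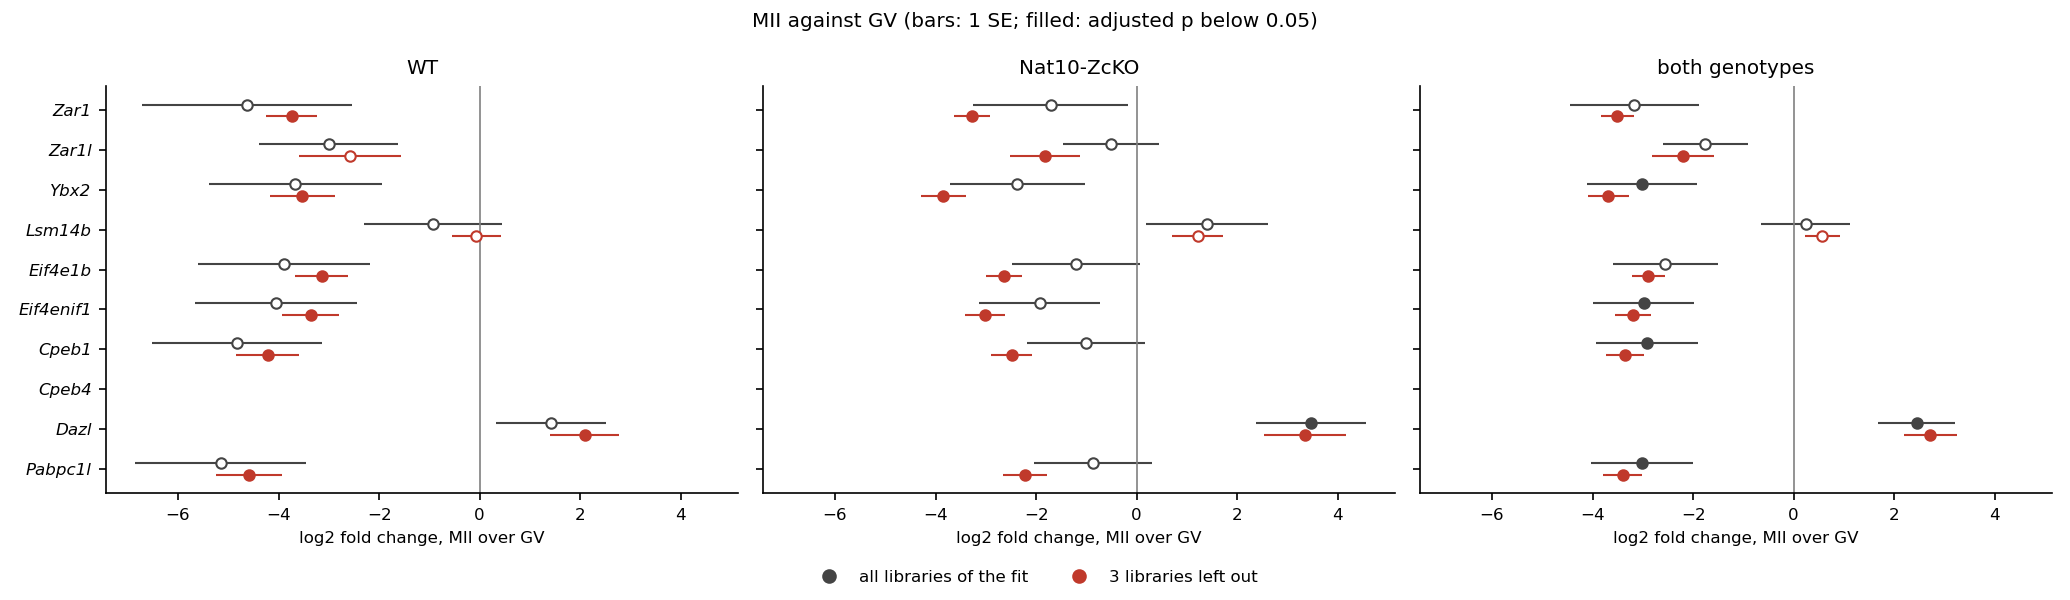
Log2 fold change of MII over GV for each gene in WT, in Nat10-ZcKO and over both genotypes, with 1 SE; black is the fit with all 11 libraries, red the fit without the 3 libraries that stood apart, and filled points have an adjusted p below the threshold of 0.05. Red points of 7 genes sit between -2.20 and -3.69 over both genotypes, Dazl sits at 2.72, and Cpeb4 was not tested.

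Within each genotype fewer genes passed the test in the 11-library fit. In WT, 0 of the 9 genes were called, with 2.02% of all genes called. DESeq2 called 5 of them lower, beside 342 of 3832 genes in all. In the edgeR fit 7 were lower at an unadjusted p under 0.05, beside 663 of 3863 genes in all. In the same fit 2 were called lower without Nat10-ZcKO GV replicate 1 or 3 (131 of 3335 and 138 of 3574 genes in all), and without WT MII replicate 1, which leaves a WT MII library with 0 counts on them, 6 were called lower, beside 9.09% of all genes. In Nat10-ZcKO, Dazl was called higher (log2 3.48, SE 1.09, adjusted p = 0.0271), beside 4.69% of genes called higher and 3.81% called lower; without WT GV replicate 1 or 2 or Nat10-ZcKO MII replicate 1 or 3 its adjusted p was 0.0522 to 0.142. Without the 3 libraries, WT showed 6 genes lower and Dazl higher, against 14.9% and 15.8% of genes, and Nat10-ZcKO showed 7 lower and Dazl higher, against 24.4% and 18.4%. In that WT contrast Pabpc1l and Cpeb1 fell most, 24.0-fold and 18.5-fold, and Zar1 fell 13.4-fold, all against the single library WT MII replicate 1. In that Nat10-ZcKO contrast, which rests on Nat10-ZcKO GV replicate 3 alone, Ybx2 fell 14.4-fold and Pabpc1l 4.66-fold. These WT and Nat10-ZcKO contrasts do not show a difference between genotypes by themselves. The interaction of stage and genotype called none of the 9 genes, with 0.906% of all genes called; Pabpc1l was the only one at an unadjusted p under 0.05 (log2 4.29, SE 1.98, edgeR adjusted p = 0.789), and DESeq2 called none. Without WT MII replicate 1 the interaction called Dazl, Lsm14b and Pabpc1l, all with 0 counts in the WT MII library left, beside 15.8% of genes above 0. Without the 3 libraries Pabpc1l was at 2.36 (SE 0.82) and Cpeb1 at 1.73 (SE 0.78), with adjusted p-values of 0.570 and 0.727 and 0 genes called in all (158 in the higher and 105 in the lower direction had an unadjusted p under 0.05).

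As a group the 10 genes took 0.728%, 0.913% and 0.921% of counts in WT GV and 0.751% in Nat10-ZcKO GV replicate 3. They took 0.118% (exact 95% interval 0.1003 to 0.138) in WT MII replicate 1 and 0.135% to 0.228% in Nat10-ZcKO MII. These bounds allow for counting error alone, and PCR copies add error that they leave out. The oocyte marker list took 6.70% to 13.04% of counts in these GV libraries and 1.42% to 1.76% in MII, and 7 of its 14 genes were called lower over all 11 libraries (Khdc3, Nlrp5, Ooep, Padi6, Zp1, Zp2 and Zp3) and none higher, beside 16.8% and 9.58% of all genes. Without the 3 libraries 10 were called lower and 3 higher, beside 30.8% and 26.0%. Relative to the oocyte marker counts, the 10 genes were at 5.75% to 10.9% in GV and 8.30% to 13.6% in MII. The 15 granulosa and cumulus markers took 0.298% to 0.601% of counts in the GV and 0.262% to 0.644% in the MII libraries, with Ptx3, Ptgs2 and Tnfaip6 called higher in MII and Amh and Foxl2 lower. The part of these cells in the stage difference was not tested. In pooled oocytes, fewer cells and less RNA per cell cannot be told apart.

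**Figure D3:**
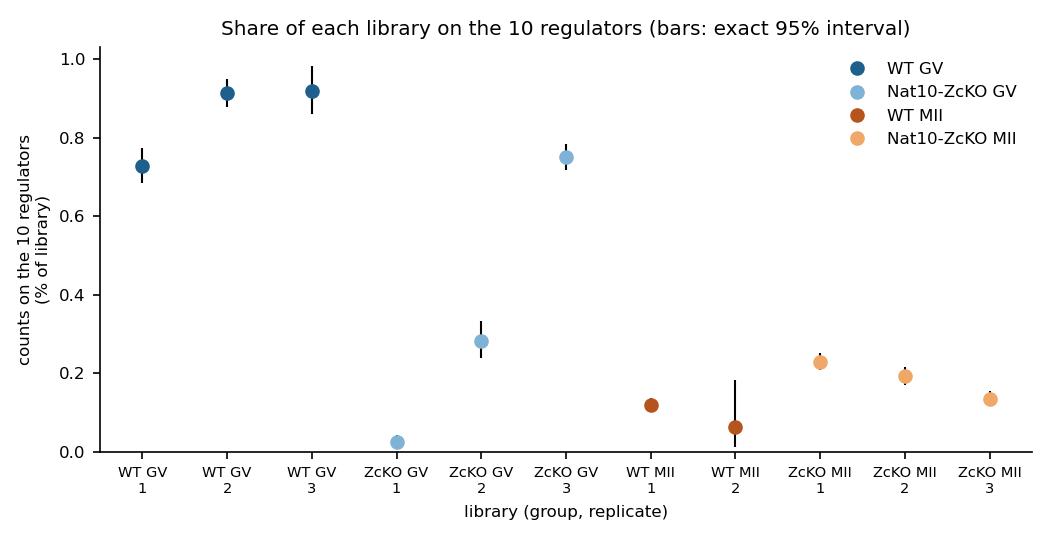
Percent of each Ribo-seq library that fell on the 10 genes, 1 point per library by group and replicate, with exact 95% intervals. WT GV libraries and Nat10-ZcKO GV replicate 3 lie between 0.728% and 0.921%, and every other library is at or below 0.282%.

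The makeup of this pool changed as well in the libraries that did not stand apart. Zar1 made up 45.1% to 49.4% of the counts on the 10 genes in WT GV and 47.8% in Nat10-ZcKO GV replicate 3, but 22.6% to 30.0% in the 4 MII libraries. Lsm14b made up 2.16% to 4.94% in these GV libraries and 14.9% to 35.9% in MII. Dazl made up at most 0.588% in these GV libraries and between 6.01% and 21.9% in MII. Thus Zar1 and Lsm14b together with Dazl accounted for most of the counts on the 10 genes in these 4 MII libraries. The libraries that stood apart did not all follow this split. Nat10-ZcKO GV replicate 2, on 146 counts, had 30.1% Zar1 and 15.1% Lsm14b, at or near the MII ranges, and 2.05% Dazl. Nat10-ZcKO GV replicate 1 had only 10 counts, and WT MII replicate 2 had 3, all on Ybx2.

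Between the genotypes, none of the 10 genes was called at either stage when all libraries were used. At the GV stage 8 of the 10 genes were tested among 1765, and none was called. Of all genes 0.00% were called, though an unadjusted p under 0.05 was reached by 60 genes in the higher and 25 in the lower direction, and DESeq2 called 3, no regulator among them. All 8 were lower in Nat10-ZcKO, with Pabpc1l lowest at log2 -2.38 (SE 0.80, edgeR adjusted p = 0.900), the 1 gene of the 8 at an unadjusted p under 0.05. Their direction depended on the 2 libraries with few oocyte counts: without these, Zar1 was at 0.055 (SE 0.25), Zar1l at 0.072 (SE 0.45), Eif4e1b at 0.51 (SE 0.28) and Ybx2 at 0.53 (SE 0.28), none of them called. Pabpc1l was then called lower in Nat10-ZcKO, 2.64-fold (log2 -1.40, SE 0.34, adjusted p = 0.0136), where 1.03% of 3879 genes were called lower. Lsm14b was at -1.05 (SE 0.37, adjusted p = 0.136) and Cpeb1 at -0.49 (SE 0.31, adjusted p = 0.494). That fit sets 3 WT GV libraries against Nat10-ZcKO GV replicate 3 alone, so it compares a library rather than a genotype. In the opposite case, with Nat10-ZcKO GV replicate 3 left out and replicates 1 and 2 kept, Pabpc1l was at -3.95 (adjusted p = 0.0134) and Cpeb1 at -3.64 (adjusted p = 0.0171), in libraries where the oocyte markers are also low and where 10.1% of all genes were called lower.

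At the MII stage 8 genes were tested among 2097, of which 0.191% were called, and none of the 8. In Nat10-ZcKO over WT, Ybx2 was at log2 -0.19, Eif4enif1 at 0.53, Dazl at 0.78 and Lsm14b at 0.84, beside a median of 0.37 for all genes. Cpeb1 was at log2 1.41 (SE 1.07), Eif4e1b at 1.29 (SE 1.04), Pabpc1l at 1.15 (SE 1.15) and Zar1 at 1.10 (SE 1.27), all with an adjusted p of 0.997 and an unadjusted p above 0.05. DESeq2 called none of them either. Without WT MII replicate 2 the same genes were at 1.32, 1.11, 1.06 and 0.62, none called. Without WT MII replicate 1, so that the 4815 counts of replicate 2 stand for WT MII, Dazl, Cpeb1, Lsm14b, Zar1 and Eif4e1b were called higher in Nat10-ZcKO. In that fit 47.3% of all genes were called higher and the median of all genes was at log2 6.52, and as the 5 genes had 0 counts in WT MII replicate 2 their fitted fold changes are no measure of size.

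**Figure D4:**
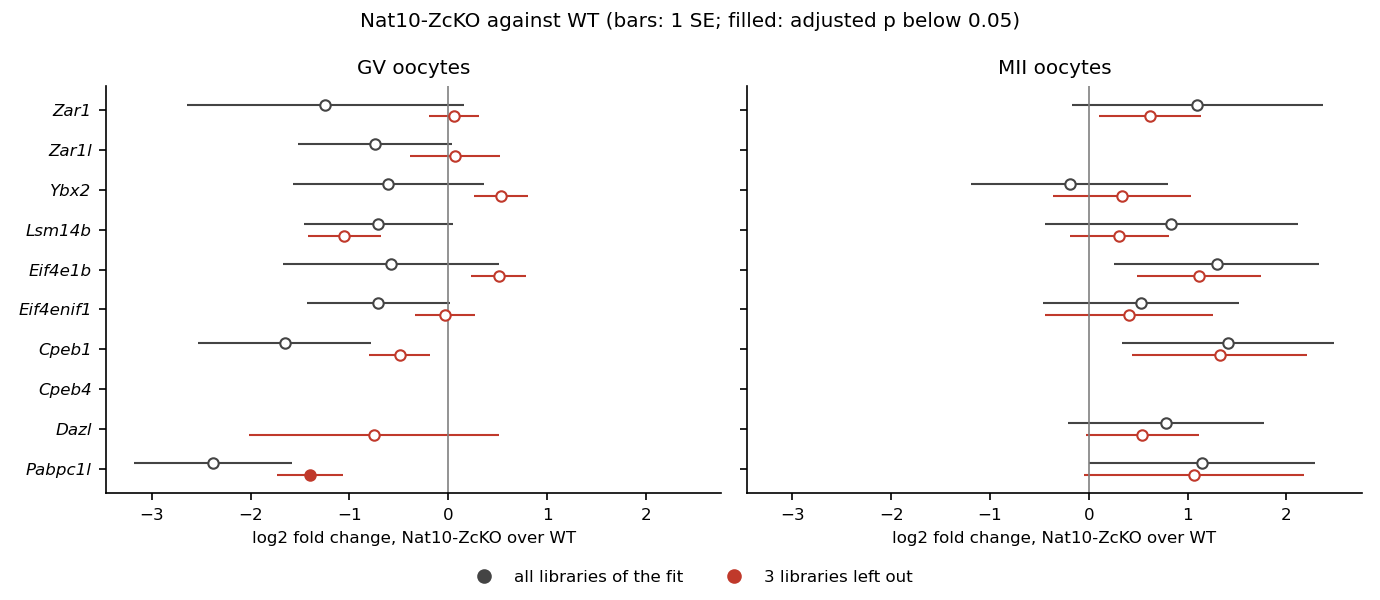
Log2 fold change of Nat10-ZcKO over WT in GV and in MII oocytes for each gene, with 1 SE; black is the fit with all libraries of that stage, red the fit without the libraries that stood apart. Pabpc1l in GV at -1.40 is the only filled point, which marks an adjusted p below the threshold of 0.05.

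The wider machinery was read from a list of 50 partners of storage and translation, of which 29 were tested for the stage difference over both genotypes. In the 11-library fit 3 were called higher in MII and 3 lower, beside 9.58% and 16.8% of all genes, with a median of -0.64 close to that of all genes. Pabpn1l, the oocyte form of the nuclear poly(A)-binding protein, was 8.77-fold higher (log2 3.13, SE 0.93), the decapping cofactor Dcp1a 7.69-fold and Pabpn1 4.26-fold higher. Without WT MII replicate 1 these 3 were at log2 -0.96, -1.84 and -1.86. Caprin2, a granule protein, was 28.6-fold lower (log2 -4.84, SE 1.16), Igf2bp2 6.01-fold and the double-stranded RNA-binding Stau1 4.52-fold lower. Paip1, Dcp1a and Edc4 held the most counts of the list, and Paip1 and Edc4 were at 1.43 and 1.28 without passing the test. Without the 3 libraries 9 of 30 were called higher and 8 lower, shares near the 26.0% and 30.8% of all genes. The Y-box gene Ybx3 then fell 5.64-fold, like Ybx2, whereas Lsm14a, the relative of Lsm14b, was 3.74-fold higher.

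Most tested genes of a list taken as mRNAs stored silent until maturation went the opposite way to most of the 10 regulators. The regulators and this list were chosen with earlier results of these data known, so this difference is not an independent finding. Of 16 such genes 12 passed the filter and were tested, and 10 were called higher in MII and none lower, beside 9.58% and 16.8% of all genes, with a median log2 change of 3.04. Tpx2 at 2.12 (SE 0.88, adjusted p = 0.0580) and Ccnb2, cyclin B2, at -0.67 (SE 0.86, adjusted p = 0.566) did not pass the test. Plat, tissue plasminogen activator, had 9, 23 and 8 counts in WT GV, 36 in Nat10-ZcKO GV replicate 3, 2340 in WT MII replicate 1 and between 2382 and 3720 in the Nat10-ZcKO MII libraries, 105-fold higher in the fit (log2 6.72, SE 1.55). Mos, the kinase that holds the MII arrest, was 33.4-fold higher, Btg4, an adaptor of mRNA deadenylation, 12.7-fold, Ccnb1, cyclin B1, 11.7-fold and the histone mRNA-binding Slbp 8.79-fold. Cnot7 and Cnot6l, deadenylase subunits, were 11.6-fold and 3.52-fold higher, and Orc6, Tex19.1 and Dcp1a 5.07-fold, 5.39-fold and 7.69-fold. With WT MII replicate 1 left out, 8 of these 10 were below 0, from -0.21 for Slbp to -1.84 for Dcp1a, while Plat was at 3.97 and Mos at 2.54.

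The CPE, which CPEB1 binds, was searched as TTTTAT or TTTTAAT on the sense strand of the last 100 bases of the longest GENCODE M21 transcript. Of the 9 regulators with a 3′UTR of that length, Ybx2 alone held a match, against 17.8% of 19681 genes; Zar1l has 11 annotated 3′UTR bases and was not searched in full. The sites of Ybx2 and of 3 stored mRNAs that rose are shown to compare the match of a falling gene with those of rising ones, with the CPE in capitals, 5′ to 3′ on GRCm38.
Ybx2, chr11:69941535-69941564, plus strand: ctgaagccaTTTTATgaactgtcatgtgcc
Plat, chr8:22782747-22782776, plus strand: atatttataTTTTAATctattttagttttt
Btg4, chr9:51119800-51119829, plus strand: taaatccctTTTTATgtctttttaaaagtt
Dcp1a, chr14:30526988-30527017, plus strand: catcctaaaTTTTATatgtttgcaaatata

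The Ybx2 match begins 62 bases from the annotated 3′ end, and those of Plat, Btg4 and Dcp1a 89, 67 and 67 bases from it, where Dcp1a has another match 43 bases from the end. The last 100 bases of Ybx2 and Btg4 held no poly(A) signal (AATAAA or ATTAAA), while those of Plat and Dcp1a each held 1. Of 19681 genes, 78.6% held a signal there. Of the 10 stored mRNAs called higher, 5 held a match in this window (Plat, Btg4, Dcp1a, Cnot7 and Orc6), and Mos, Ccnb1, Slbp, Cnot6l and Tex19.1 held none. In the last 200 bases, however, Ccnb1 and Slbp each held 1 match, while Cnot6l and Tex19.1 held none. Mos, whose 3′UTR has 123 bases, held none in it. Dazl, the regulator that rose, had no match in either window. Of 17737 genes, 28.3% held a match in the last 200 bases. The shorter window was also searched in all genes tested for the stage difference with a 3′UTR of that length. There 43.7% of the 366 called higher in MII held a match, 11.1% of the 584 called lower and 22.6% of all 3698. These shares are a description of annotated ends, and a match is not a bound site.

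In the acRIP-seq libraries Pabpc1l had the highest anti-ac4C to anti-IgG ratio of the 10 genes and Zar1 the lowest among those with more than 10 counts in all. Ratios are of CPM from 970997 and 116232 counts, with exact 95% intervals for counting error, and with 1 library each they compare libraries. Pabpc1l had 568 anti-ac4C and 34 anti-IgG counts, a ratio of 1.9998 (1.41 to 2.92). Dazl was at 1.28 (0.830 to 2.05) and Ybx2 at 1.27 (0.972 to 1.67). Eif4enif1 (0.896), Eif4e1b (0.893) and Lsm14b (0.821) lay just below 1. Zar1l was at 0.613, Cpeb1 at 0.581 (0.500 to 0.678) and Zar1, on 1652 and 534 counts, at 0.370 (0.336 to 0.409). Cpeb4 had 3 and 7 counts, a ratio of 0.0513 (0.00856 to 0.225). None of the 10 was above 2, against 43.9% of 8752 genes with at least 10 counts. Among the 10, 1 had its interval above 1, against 21.7%, and 5 below 1, against 17.8%. Genes without an anti-IgG count were counted as above 2. Only 7045 genes had an anti-IgG count at all. Shares above 2 and medians over all genes are therefore raised, while each of the 10 had at least 7 anti-IgG counts. Pabpc1l lay so close to 2 that it was above it with TMM factors, at 2.23 (4087 of 8752 genes), and with fragments on no feature in the totals, at 3.12 (4857 genes). The median was 0.857 for the 10 genes and 1.56 for all. For the oocyte markers it was lower still, at 0.603 (range 0.305 to 2.46), so a low ratio was not particular to the 10 genes. Scaled to the counts of the oocyte markers instead, the ratios were 2.69 in the median of all genes and 1.48 in that of the 10, with 3 of the 10 and 5105 of all genes above 2. Eif4enif1, Eif4e1b, Lsm14b, Zar1l and Cpeb1 then turned to 1.55, 1.54, 1.42, 1.06 and 1.003.

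**Figure D5:**
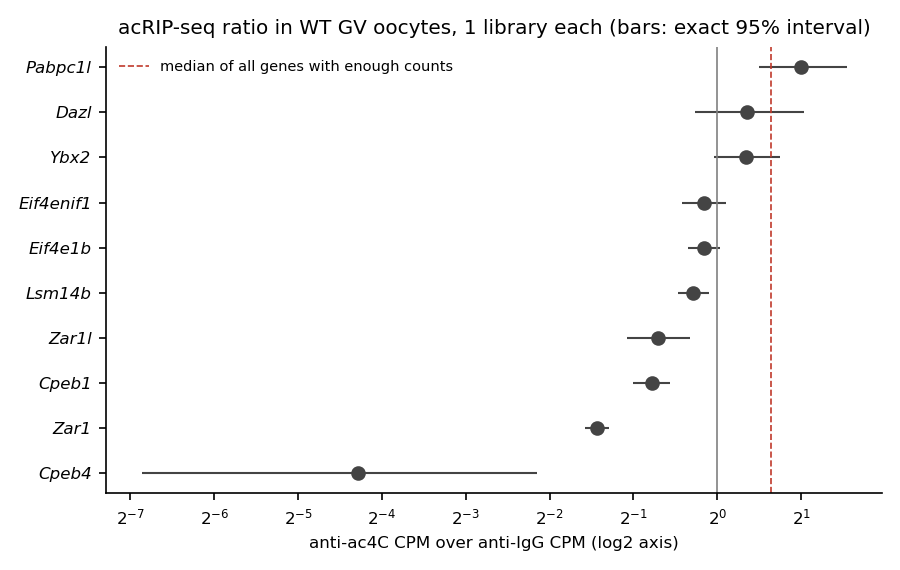
Ratio of anti-ac4C to anti-IgG CPM in WT GV oocytes for each gene on a log2 axis, with exact 95% intervals. The grey line is 1 and the dashed line the median of all genes with enough counts, 1.56. That median is raised by genes without an anti-IgG count, which were counted as above 2. Pabpc1l at 1.9998 is the only gene right of the dashed line.

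The anti-IgG library holds the poly(A) RNA of WT GV oocytes that came down with the control antibody, and how closely it follows the amount of each mRNA was not tested. Set against it, footprints were highest for Pabpc1l and Ybx2, with ratios of footprint CPM to anti-IgG CPM of 2.54 and 2.04, at the 97.2 and 95.9 percentiles of 1510 genes with at least 20 anti-IgG counts, whose median was 0.277. Both ratios rest on few anti-IgG counts, 34 and 61, which are also the denominators of their ac4C ratios. Zar1 was at 0.865, Eif4enif1 at 0.536 and Eif4e1b and Cpeb1 at 0.407 and 0.406. Dazl (0.172), Lsm14b (0.156) and Zar1l (0.151) lay below the median. The fragments differ in length and in the part of the transcript they come from, and no test was made.

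For the 3 regulators with most counts, the genes with the most similar course over the 8 libraries were named by the root mean square difference of centred log2(CPM + 10) values, among 1436 genes with at least 100 CPM on average. Gyg (0.149) and Cops3 (0.214) were closest to Zar1, where the median gene was at 1.79. Dnajc9 (0.208) and Mbl2 (0.398) were closest to Ybx2, and Tuba1c (0.184) and Ddx19a (0.211) to Eif4e1b, with medians of 1.98 and 1.40. Gyg ran from 2091 CPM on average in GV to 223 CPM in MII.

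Of these loci 3 are shared in part or in full with other annotated genes. The annotated gene Gm15933 lies within Zar1l on the same strand, and Rpl7a-ps9 lies within Cpeb1 on the other strand. Eif4enif1 lies wholly within the span of Drg1, which is on the other strand. Whether the counting used strand is not given in the sources used here, so counts in the shared stretches cannot be assigned with certainty.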

How the data were processed

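Deposited counts of Ribo-seq fragments on the CDS and of acRIP-seq fragments on genes were used as the authors gave them, whole numbers per gene without normalization, 1 library per file. The submitters' processing notes name mm10, cutadapt, STAR and HTSeq, and versions, rRNA removal and the handling of PCR duplicates are not given in the sources used here. Rows that name no gene stayed out of library sizes; they hold 46.7% (anti-IgG) and 17.1% (anti-ac4C) of fragments on no feature. Without versions, 22399 of 22442 Ensembl identifiers matched GENCODE M21 (GRCm38), and TPM used union CDS lengths. Tests were edgeR 4.0.16 (R 4.3.3: filterByExpr, TMM, glmQLFit and glmQLFTest, prior count 0.125), with Benjamini-Hochberg adjustment over all genes tested and a threshold of 0.05. GV and MII genotype fits held the libraries of that stage, and stage contrasts and the interaction came from 1 fit of 11 libraries. SE is the log2 fold change over the square root of F. DESeq2 1.42.0, other scaling, no filter, a replicate block and left-out libraries were alternatives. Ratios and shares have Clopper-Pearson intervals, computed with scipy 1.17.1. Of these steps only the edgeR fits were tried on simulated data, with less spread between libraries than the 11-library fit showed. Named were the 10 genes, list genes past the threshold or with the most counts, and genes of similar course. Of the oocyte and granulosa and cumulus lists, only genes past the threshold over both genotypes in the 11-library fit were named. Adipocyte markers and 8 smooth muscle markers were not named, though 1 and 2 of them were called lower in that contrast. The 8-library partners Ybx3 and Lsm14a and the motif examples were chosen after their values were seen. The members and all lists were chosen with earlier results of these data known. Libraries of a group differed by more than counting noise, so none was counted as a duplicate.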

Additional observations from a re-analysis of the deposited data

How the results depend on the processing

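Depth limits these results: 0 counts allow 623 CPM in WT MII replicate 2, and Cpeb4 could not be tested with the filter. The counts of genes called moved with nearly every choice. DESeq2 called 3 genes between genotypes in GV, 15 in MII, 423 and 1186 for the WT and Nat10-ZcKO stage differences and 1603 over both, with 5, 3 and 8 of the 10 regulators in these stage contrasts. Library size scaling called 24 genes in MII, 164 and 864 for the WT and Nat10-ZcKO stage differences, with 1 and 2 regulators. Without a filter 41 (GV), 0 (MII), 9 (WT stage), 25 (Nat10-ZcKO stage), 388 (both) and 10 (interaction) genes were called and 0 regulators in either Nat10-ZcKO or both genotypes. Without the 3 libraries 78 (GV), 1236 (WT stage), 1725 (Nat10-ZcKO stage), 2289 (both) and 0 (interaction) genes were called, with 1, 7, 8 and 8 regulators in the first 4. With all 11 libraries in 1 fit 25 (GV) and 19 (MII) genes were called, and with only the libraries compared the WT stage difference had 439 genes and 2 regulators.

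The replicate numbers share no stated source, and same-numbered libraries correlated at -0.069 to 0.19 (15 pairs), so they were not taken as pairs; 5 of 11 libraries correlated best with their own number. With the replicate block 0 (MII), 0 (WT stage), 127 (Nat10-ZcKO stage), 335 (both) and 8 (interaction) genes were called and 0 regulators in the Nat10-ZcKO and joint stage contrasts, where Lsm14b turned to -0.027.

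Apart from leaving out single libraries, directions turned for 5 of the regulators, none of them called in the contrast concerned. In GV these were Ybx2 (0.53), Eif4e1b (0.51), Zar1 (0.055) and Zar1l (0.072) without the 3 libraries. In MII Ybx2 turned to 0.55 without a filter, 0.33 without the 3 libraries and 0.60 with all 11 in 1 fit. Over both genotypes Lsm14b turned to -0.25 with DESeq2, and in the interaction Ybx2 turned to -0.084 with library size scaling and -0.32 without the 3 libraries.

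Leaving out each library in turn gave 0 to 385 genes and 0 to 2 regulators called in GV, 0 to 1451 and 0 to 5 in MII, 2 to 581 and 0 to 6 for the WT stage difference, 57 to 903 and 0 to 1 for Nat10-ZcKO, 477 to 1309 and 1 to 8 for both, and 0 to 948 and 0 to 3 for the interaction. Directions turned somewhere for 8 of the 9 regulators tested, Eif4enif1 being the exception, and Dazl over both genotypes was the only one of these called in that contrast. Ybx2 ran from -1.16 to 0.33 in MII and from -0.023 to 2.71 in the interaction. In the WT stage difference Dazl ran from -5.36 to 2.31 and Lsm14b from -8.79 to 0.10. In Nat10-ZcKO Cpeb1 ran from -1.67 to 1.19, Pabpc1l from -1.49 to 0.88, Eif4e1b from -1.91 to 0.46, Zar1 from -2.42 to 0.54 and Zar1l from -1.13 to 2.01. Over both genotypes Dazl ran from -0.88 to 2.98, Lsm14b from -3.62 to 0.86, Slbp from -0.21 to 3.75, Dcp1a from -1.84 to 3.55, Pabpn1 from -1.86 to 2.70, Cnot7 from -0.47 to 4.44, Orc6 from -1.22 to 2.90, Btg4 from -1.56 to 4.32, Cnot6l from -1.53 to 2.79, Tex19.1 from -1.57 to 3.04, Ccnb1 from -0.47 to 4.18 and Pabpn1l from -0.96 to 3.76.

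For the ac4C ratios, TMM factors gave 2 regulators with an interval above 1, and fragments on no feature or oocyte marker counts as the scale gave 6 above and 2 below; 1, 1 and 3 regulators were then above 2. Eif4enif1 turned to 1.40 and 1.55, Eif4e1b to 1.39 and 1.54 and Lsm14b to 1.28 and 1.42 with the last 2 scales, and Cpeb1 and Zar1l to 1.003 and 1.06 with the last. Without the 20 genes with most counts the regulators took 1.36% of counts in WT GV and 0.265% in Nat10-ZcKO MII. The count of regulators with a CPE was 1 with 100 or 200 bases. The cause of these changes was not tested.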
